A study of Homo sapiens with 12 samples.

Results

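Matrix metalloproteases (MMP), the membrane-bound ADAM proteases, the secreted ADAMTS proteases and their tissue inhibitors (TIMP) were described across 2 human breast cancer cell lines with and without a glucocorticoid. The members were all genes of the deposited count table with a symbol made of MMP, ADAM or ADAMTS and a number, or TIMP and a number from 1 to 4. This gave 67 of 51838 genes, 22 MMP, 22 ADAM, 19 ADAMTS and 4 TIMP genes, and 46 of them had enough counts to be tested.

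HCC70 and MDA-MB-231 are established lines that the labels call basal-like. Each was kept for 4 h in 100 nM dexamethasone, a synthetic ligand of the glucocorticoid receptor, or in the same volume of ethanol, its vehicle. Each of the 4 groups had 3 libraries of polyA RNA. The medium was RPMI for HCC70 but DMEM for MDA-MB-231, so the effects of line and of medium cannot be told apart where the lines are compared. Whether the 3 replicates of a group were independent cultures is not said in the labels. The p-values therefore reflect only how far these libraries varied, and that variation may be technical. The study asked which genes the glucocorticoid receptor and the transcription factor STAT3 regulate.

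MMP, ADAM and ADAMTS enzymes share a zinc-dependent catalytic domain. MMPs cut collagens, other matrix proteins and cell surface proteins, and several of them are anchored in the membrane. ADAMs mainly release the outer parts of membrane proteins such as growth factor precursors, cytokine receptors and Notch, and some ADAMs have no working catalytic site. ADAMTS enzymes cut proteoglycans and process procollagens. TIMPs bind and block these enzymes, with TIMP3 held in the matrix and active against the widest range of them. In breast tumours these genes are studied for their part in invasion and in growth factor release.

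Promoter sequences are shown for 4 members whose levels are described below, as a pair without and a pair with a GC-rich start. RefSeq promoters (GRCh38.p14) were found for 38 of the 67 genes. Each line below gives the 120 bases just before the annotated transcription start, outside the gene, 5′ to 3′ on the gene's strand. In the first pair, neighbours in an MMP cluster on chromosome 11, capitals mark a match to the AP-1 motif TGANTCA and to TATAAA. In the second pair capitals mark GGGCGG, the GC box, on either strand.
MMP7, chr11:102530748-102530867, minus strand: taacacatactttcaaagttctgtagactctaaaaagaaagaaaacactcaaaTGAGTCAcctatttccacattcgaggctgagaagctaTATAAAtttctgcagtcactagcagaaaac
MMP10, chr11:102780629-102780748, minus strand: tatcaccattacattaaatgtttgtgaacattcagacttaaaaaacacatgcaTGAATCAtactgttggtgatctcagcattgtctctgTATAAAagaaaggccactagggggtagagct
TIMP3, chr22:32801585-32801704, plus strand: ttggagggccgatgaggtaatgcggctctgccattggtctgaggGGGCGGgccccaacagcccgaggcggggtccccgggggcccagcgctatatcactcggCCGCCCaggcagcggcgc
ADAM8, chr10:133276869-133276988, minus strand: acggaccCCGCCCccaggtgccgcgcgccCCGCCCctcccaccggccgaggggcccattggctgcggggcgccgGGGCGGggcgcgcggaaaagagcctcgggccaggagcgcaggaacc

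The AP-1 letters began 67 bases before the start in both MMP7 and MMP10, and the TATA letters 30 and 31 bases before it. Over 250 bases upstream, the GC content was 33.6% for MMP7 and 34.4% for MMP10, against 72.4% for TIMP3 and 73.6% for ADAM8. On either strand of that window TGANTCA was in 6.57% of all 35116 promoters. Of the 38 members with a promoter 4 had it, ADAMTS12, MMP10, MMP20 and MMP7. TATAAA, searched on the gene's strand only, was in 6.8% of all promoters and in 6 of the 38 members, all MMP genes. GGGCGG was in 42.6% of all promoters and in 25 of the 38 members. The full glucocorticoid response element was searched as AGAACA, 3 bases of any kind and TGTTCT in a row. It was in 0.00285% of all promoters and in none of the 38 members. Its first letters, AGAACA, were in 12.4% of all promoters and in those of ADAM30, ADAMTS19, MMP11 and MMP24. The other 29 members, among them ADAMTS1, ADAMTS5, ADAMTS8, ADAMTS9 and ADAMTS15, had no promoter here and were not searched. All these matches describe letters only.

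Libraries held 106345287 to 123218973 counts. Levels are given as CPM, counts scaled to a library size of 1e+06 after TMM, and as mean ± SD with n = 3. The 3 counts that a group with 0 counts allows corresponded to 0.00782 to 0.00898 CPM, which covers counting error only. The treatment showed in FKBP5, a receptor target, which rose 6.20-fold in HCC70 and 19.9-fold in MDA-MB-231, and in PER1 (7.33-fold and 14.9-fold) and TSC22D3 (2.70-fold and 28.9-fold). The receptor gene NR3C1 fell 1.41-fold in MDA-MB-231 (adjusted p 0.000112) and did not pass in HCC70 (adjusted p 0.346). The basal keratin KRT5 was at 2595 CPM in HCC70 vehicle but at 0.804 CPM in MDA-MB-231 vehicle, so the basal-like label rested on few of its markers there: KRT14, KRT17, KRT6A and TP63 were at most at 1.32 CPM, and EGFR was at 356 CPM. VIM, an intermediate filament of mesenchymal cells, was at 145 and 2212 CPM, and the junction protein CDH1 at 517 and 2.28 CPM. The 6 fibroblast markers summed to 65.9 to 76.1 CPM in HCC70 vehicle and 94.6 to 109.5 with dexamethasone, and to 53.9 to 84.3 and 35.4 to 46.2 CPM in MDA-MB-231. In HCC70 nearly all of this was COL1A1, at 72.1 and 101.5 CPM, with COL1A2 and PDGFRB at most at 0.144 CPM on average. In MDA-MB-231 COL1A2 was at 38.2 CPM in vehicle and 23.6 with dexamethasone. COL1A1 was at 22.2 and 11.4 CPM there and PDGFRB at 8.34 and 5.01. COL3A1, DCN and LUM had 0 counts in HCC70 and were at most at 0.235 CPM on average in a group of MDA-MB-231. The part of these markers in the results was not tested.

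Library composition moved with treatment. Across 13642 genes, a library's deviation from its line's mean correlated with the GC content of the transcript at -0.624 to -0.163 (Spearman) in the 3 HCC70 vehicle libraries and at 0.384 to 0.523 in the 3 dexamethasone libraries. In MDA-MB-231 the values were 0.701, 0.174 and -0.249 in vehicle 1, 2 and 3 and -0.536, 0.28 and -0.521 with dexamethasone, so vehicle 1 and dexamethasone 2 stood apart from their groups. Results on GC-rich members are therefore given with an offset that removes trends with GC content and length, and without these libraries where that changes them.

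The lines differed in which enzymes and inhibitors they carried. In vehicle, 15 members were higher in HCC70 and 28 lower, 43 of the 46 tested, where 79.2% of all 28141 tested genes passed (39.2% higher and 40% lower in HCC70). In 43 members the libraries of the lines did not overlap, which held for 80.3% of all genes. The median log2 difference, HCC70 over MDA-MB-231, was -2.34 for the members and -0.03 for all genes. Of the 13 MMP genes tested 8 were higher in HCC70 and 5 lower. Of the 15 ADAMTS genes 4 were higher in HCC70 and 11 lower, and of the 14 ADAM genes 3 were higher and 8 lower. All 4 TIMP genes were lower in HCC70. Fewer cells with a transcript and less of it per cell cannot be told apart in such bulk libraries.

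**Figure D1:**
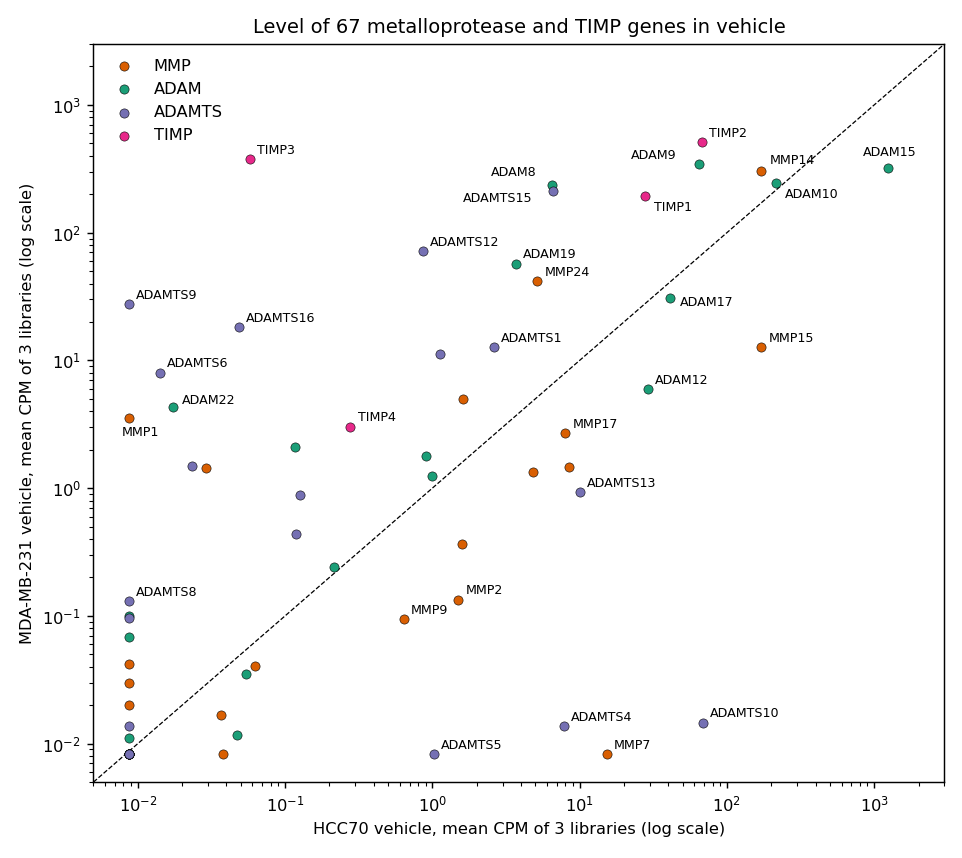
Mean CPM of the 67 genes in vehicle, HCC70 on the x axis and MDA-MB-231 on the y axis, both log scales, n = 3 libraries each; means below the 3-count limit of a group are drawn at that limit and the dashed line marks equal levels. TIMP3, ADAMTS9 and MMP1 lie far above the line, and MMP7, ADAMTS10 and ADAMTS4 far below it.

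The inhibitors showed the widest gap for TIMP3. Its CPM were 386, 396 and 340 in MDA-MB-231 vehicle and 0.0336, 0.045 and 0.0945 in HCC70 vehicle. The log2 difference was -12.64 ± 0.188 (SE) with an adjusted p of 8.63e-16 (edgeR quasi-likelihood test, Benjamini-Hochberg). TIMP3 was thus among the most abundant members in one line and nearly absent in the other. TIMP1 was at 198, 181 and 198 CPM in MDA-MB-231 and at 28.6, 27.7 and 26.5 in HCC70, 6.97-fold apart. TIMP2, which also takes part in the activation of pro-MMP2 by MMP14, was at 515, 526 and 492 CPM and at 66.8, 72.1 and 64.3, 7.54-fold apart. TIMP4 was at 3.35, 3.05 and 2.71 CPM and at 0.269, 0.315 and 0.249, 10.9-fold apart. No library of one line reached into the other for any TIMP. For TIMP2 and TIMP4 about 10.0% and 10.3% of the exon bases overlap other genes, and these libraries do not keep the strand.

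Per kilobase of exon, a scale on which genes can be compared, the order of members differed between the lines. In HCC70 vehicle ADAM15, an ADAM with roles in adhesion and shedding, was first with 190 ± 15.3 CPM per kb. MMP15 and MMP14, both membrane-type MMPs, followed with 38.7 ± 3.42 and 38.1 ± 1.28, a gap smaller than their spread, and then TIMP1 with 17.9 ± 0.69 and ADAM10 with 13.2 ± 0.938. In MDA-MB-231 vehicle 3 inhibitors came first, TIMP1 with 125 ± 6.21, TIMP2 with 90.7 ± 3.01 and TIMP3 with 81.3 ± 6.5 CPM per kb. MMP14 was next with 67.8 ± 2.97. ADAM9, ADAM8 and ADAM15 followed with 49.7 ± 4.44, 49.1 ± 14.1 and 48.5 ± 9.67, and these 3 did not differ beyond their spread.

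The 9 MMP genes that neighbour each other on chromosome 11, MMP7, MMP20, MMP27, MMP8, MMP10, MMP1, MMP3, MMP12 and MMP13, were almost silent apart from 1 gene in each line. MMP7, or matrilysin, was at 17.2, 14.9 and 13.6 CPM in HCC70 vehicle, against 3 counts over the MDA-MB-231 vehicle libraries, a ratio of 1840 with an exact 95% counting interval from 629 to 8930. MMP1, or interstitial collagenase, was at 3.48, 3.39 and 3.72 CPM in MDA-MB-231 vehicle and had 0 counts in HCC70 vehicle, at least 407-fold higher in MDA-MB-231. The other 7 genes were below 0.1 CPM on average in every group, and MMP10 and MMP27 had 0 counts in all 12 libraries.

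Several ADAMTS genes had few or no counts in 1 of the lines. ADAMTS9, a versican and aggrecan protease, was at 24.9, 29.7 and 28.4 CPM in MDA-MB-231 vehicle and had 0 counts in HCC70 vehicle, at least 3200-fold higher in MDA-MB-231. ADAMTS16 was at 18.2, 18.1 and 18.4 CPM against 0.0503, 0.009 and 0.0859 in HCC70. ADAMTS6 was at 6.83, 7.94 and 9.21 CPM against 0.0252, 0 and 0.0172. Every HCC70 vehicle library was below 0.1 CPM for these 3 genes. ADAMTS10, which is linked to fibrillin microfibrils, had the opposite pattern with 60.4, 65.2 and 79.8 CPM in HCC70 and 0, 0 and 0.0438 in MDA-MB-231. ADAMTS4, an aggrecanase, was at 7.01, 7.58 and 8.92 CPM in HCC70 and at 0.0335, 0.00781 and 0 in MDA-MB-231. ADAMTS5, the other main aggrecanase, had 355 counts over the HCC70 vehicle libraries and 2 over those of MDA-MB-231, a ratio of 185 with a counting interval from 50.9 to 1540.

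ADAM10, a sheddase of Notch and many other proteins, was at 231, 201 and 211 CPM in HCC70 and at 214, 261 and 254 in MDA-MB-231, overlapping values with an adjusted p of 0.0519. With the GC offset it was 1.12-fold lower in HCC70 with an adjusted p of 0.00234, and it also passed with library size only, without the low-count filter, with the strict filter, and without HCC70 vehicle 1, MDA-MB-231 vehicle 1 or MDA-MB-231 dexamethasone 2. ADAM17, which releases TNF and EGFR ligands, was 1.36-fold higher in HCC70 with an adjusted p of 2.49e-05. About 13.6% of the exon bases of ADAM17 overlap other genes. ADAM15 was 3.92-fold higher in HCC70 and ADAM9 5.30-fold lower. ADAM8 was at 5.72, 6.32 and 7.5 CPM in HCC70 and at 306, 226 and 172 in MDA-MB-231, 36.0-fold apart. MMP15 was at 157, 169 and 187 CPM in HCC70 and at 16.1, 12.1 and 9.96 in MDA-MB-231, 13.5-fold apart. MMP14 was 1.78-fold lower in HCC70. The gelatinases MMP2 and MMP9 were low in both lines, at 1.5 ± 0.193 and 0.639 ± 0.0914 CPM in HCC70 vehicle and at 0.134 ± 0.0408 and 0.0944 ± 0.0098 CPM in MDA-MB-231 vehicle.

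In HCC70, few members passed after 4 h of dexamethasone in the fit of all libraries. One gene rose and 3 fell of 46 tested, 8.7%, where 3.96% of all genes passed (2.55% up, 1.4% down). The 3 that fell were ADAMTS genes, and 14 members had groups that did not overlap, which held for 32.4% of all genes. The median log2 change was 0.13 for the members and -0.01 for all genes.

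ADAMTS5 was at 1.15, 0.981 and 0.936 CPM in vehicle and 0.214, 0.327 and 0.312 with dexamethasone. All treated libraries were below all vehicle libraries, and the gene fell 3.58-fold (log2 -1.84 ± 0.286, adjusted p 0.00177). ADAMTS1, its neighbour on chromosome 21 and a protease of aggrecan and versican, went from 2.46, 2.42 and 2.94 to 1.45, 1.23 and 1.42 CPM. Its groups did not overlap either, and it fell 1.91-fold (log2 -0.93 ± 0.107, adjusted p 0.00014). ADAMTS3, a procollagen N-propeptidase, fell from 0.126, 0.135 and 0.0945 to 0.0447, 0.0455 and 0.0268 CPM, 2.98-fold, with an adjusted p of 0.0406. The low level of ADAMTS3 left its call on few counts, and without any one of the 6 HCC70 libraries its adjusted p was 0.0518 to 0.167, and without MDA-MB-231 vehicle 2 it was 0.0588.

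MMP28, or epilysin, was the member that rose. It was at 1.34, 1.55 and 1.86 CPM in vehicle and 2.48, 2.74 and 2.32 with dexamethasone, without overlap, and rose 1.59-fold (log2 0.67 ± 0.157, adjusted p 0.0302). The call was lost without HCC70 vehicle 1 or 2 (adjusted p 0.159 and 0.118) or dexamethasone 1, 2 or 3 (0.0913, 0.135 and 0.0635). The gene has no GC value here. The GC offset therefore gave it the median GC content and length of the other genes.

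Other HCC70 members had groups apart without passing. ADAMTS15 was at 5.97, 7.36 and 6.52 CPM in vehicle and 10.6, 10.4 and 10.8 with dexamethasone, with an adjusted p of 0.0772. MMP9 was at 0.621, 0.738 and 0.558 and at 0.974, 1.06 and 1.08 CPM, with an adjusted p of 0.0716. ADAM15 was at 1202, 1183 and 1366 CPM in vehicle and 1715, 1640 and 1670 with dexamethasone, with an adjusted p of 0.145. These calls depended on the other line's libraries, which share the estimate of spread. Without MDA-MB-231 vehicle 1 and dexamethasone 2, 8 members rose in HCC70, ADAM15, ADAMTS10, ADAMTS15, ADAMTS4, MMP15, MMP17, MMP28 and MMP9, and with HCC70 fitted alone MMP25 was added to them. Over all genes, 2532 and 3024 rose in these fits, against 719 in the fit of all libraries. The GC content of their transcripts was 51.4% for ADAMTS4 and 59.8% (ADAMTS15) to 68.7% (MMP17) for the others with a value. With the offset for GC content the members that rose were ADAMTS15 and MMP28, among 1278 of all genes, and the 3 ADAMTS genes fell as before. The offset could not correct MMP28 for its own GC content, so it does not test that rise. No ADAM gene passed in HCC70, where 1 of 14 had an unadjusted p under 0.05 in edgeR and 1 passed in DESeq2. No TIMP passed either, with 0 of 4 by both measures. TIMP1 was at 26.9, 27 and 26.5 CPM with dexamethasone, TIMP2 at 66.2, 66.6 and 67.2, TIMP3 at 0.0357, 0.0727 and 0.0892, and TIMP4 at 0.42, 0.382 and 0.241. The 95% interval of the log2 change was -0.165 to 0.08 for TIMP1 and -0.145 to 0.098 for TIMP2.

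**Figure D2:**
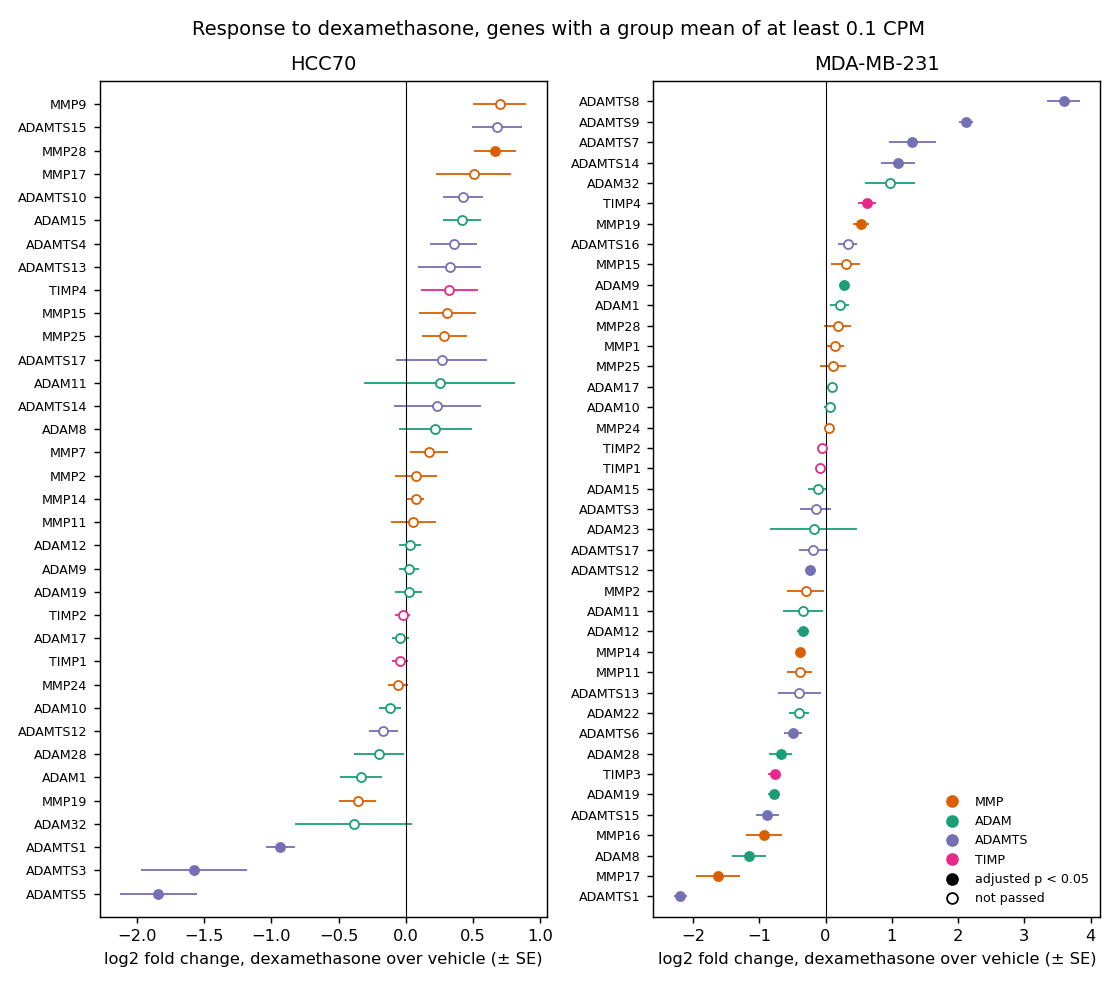
Log2 fold change with dexamethasone (x axis, bars are SE) for each tested gene with a group mean of at least 0.1 CPM in that line, ordered by size; filled points passed an adjusted p of 0.05. In HCC70 the filled points are MMP28 and 3 ADAMTS genes, and in MDA-MB-231 they run from ADAMTS8 at 3.59 to ADAMTS1 at -2.19.

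In MDA-MB-231 more members passed in the fit of all libraries. Of 46 members, 7 rose and 13 fell, 43.5%, where 14.6% of all genes passed (6.65% up, 7.96% down). In 22 members the groups did not overlap, which held for 27.2% of all genes, and these 22 included all 20 that passed. By class, 4 of 15 ADAMTS genes rose and 4 fell, 1 of 13 MMP genes rose and 4 fell, 1 of 14 ADAM genes rose and 4 fell, and 1 of 4 TIMP genes rose and 1 fell. ADAMTS1 was the one member that passed in both lines, and it fell in both. Both lines share the estimate of spread in this fit. With each line fitted alone, 9 members rose and 3 fell in HCC70, and 5 rose and 6 fell in MDA-MB-231. Over all genes 3024 rose and 1804 fell in HCC70, and 1110 and 1006 in MDA-MB-231. Fitted alone, MDA-MB-231 lost ADAM8, ADAM9, ADAM12, ADAM28, ADAMTS7, ADAMTS12, ADAMTS14, ADAMTS15, MMP9 and MMP17 (adjusted p 0.0502 to 0.0987). ADAMTS16 was then added to those that rose.

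The ADAMTS genes had the largest changes in both directions. ADAMTS9 rose from 24.9, 29.7 and 28.4 CPM to 113, 120 and 126, 4.33-fold (log2 2.12 ± 0.105, adjusted p 6.88e-08). ADAMTS8 rose from 0.117, 0.141 and 0.131 to 1.28, 1.82 and 1.64 CPM, 12.1-fold (log2 3.59 ± 0.247, adjusted p 8.97e-07). The treated libraries of both genes were far above all vehicle libraries. ADAMTS1 fell from 13.1, 12.8 and 12.1 to 2.63, 2.95 and 2.74 CPM, 4.56-fold (log2 -2.19 ± 0.0986, adjusted p 2.11e-09). With dexamethasone ADAMTS1 in MDA-MB-231 was close to its level in untreated HCC70, 2.77 ± 0.159 against 2.61 ± 0.292 CPM.

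ADAMTS15, a versican protease that neighbours ADAMTS8 on chromosome 11, moved the other way. Its CPM were 271, 202 and 165 in vehicle and 94.9, 139 and 112 with dexamethasone, without overlap, and it fell 1.84-fold (adjusted p 0.00684). Fitted on MDA-MB-231 alone its adjusted p was 0.079. ADAMTS14, a procollagen N-propeptidase like ADAMTS3, rose from 13.1, 11.3 and 9.13 to 17.1, 33.7 and 20.8 CPM, 2.13-fold (adjusted p 0.0161). Its highest value was in dexamethasone 2, one of the libraries that stood apart, and without vehicle 2 the adjusted p was 0.0527. ADAMTS7, which cuts cartilage oligomeric matrix protein, rose from 2.14, 1.2 and 1.14 to 2.57, 5.16 and 3.38 CPM, 2.48-fold (adjusted p 0.0352). Near-identical pseudogene copies of ADAMTS7 are known, and whether they shared its reads was not tested. Its call was also lost without MDA-MB-231 vehicle 2 or 3 or dexamethasone 2 or 3 (adjusted p 0.0584 to 0.111) and without HCC70 vehicle 2 or 3 or dexamethasone 3 (0.0506 to 0.0536). With the GC offset it rose 3.53-fold (log2 1.82, adjusted p 0.000119), and ADAMTS14 2.55-fold (adjusted p 4.48e-05).

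Smaller falls were seen in ADAMTS6, 1.41-fold with an adjusted p of 0.028, and in ADAMTS12, 1.18-fold with an adjusted p of 0.0318. The first was lost without MDA-MB-231 dexamethasone 2 or 3 or vehicle 2 or 3 (0.0634 to 0.111). The second was lost without dexamethasone 1, 2 or 3, vehicle 2 or HCC70 dexamethasone 1 (0.0579 to 0.13).

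Of the 6 membrane-anchored MMP genes, all of them tested, 3 fell. MMP14, the main activator of pro-MMP2 at the cell surface, fell from 315, 305 and 288 to 222, 250 and 224 CPM, 1.31-fold (log2 -0.39 ± 0.0615, adjusted p 0.000646), and by 0.24 on the log2 scale with the GC offset. MMP17, a GPI-anchored MMP, fell from 3.75, 2.45 and 1.9 to 0.467, 1.36 and 0.828 CPM, 3.07-fold (log2 -1.62 ± 0.333, adjusted p 0.00911). MMP16 fell 1.9-fold (adjusted p 0.0346). The groups of all 3 were apart, and MMP14 and MMP17 also passed without any one library, although MMP17 had an adjusted p of 0.0908 when MDA-MB-231 was fitted alone. MMP16 was lost without MDA-MB-231 dexamethasone 1, 2 or 3 or vehicle 2 or 3 (adjusted p 0.0582 to 0.0955) and without HCC70 dexamethasone 1 or 2 (0.0506 and 0.0517). The other membrane-anchored MMP genes, MMP15, MMP24 and MMP25, did not pass, with adjusted p of 0.391, 0.668 and 0.738.

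MMP9, or gelatinase B, fell from 0.092, 0.0859 and 0.105 to 0.00766, 0.0485 and 0.0232 CPM, 3.5-fold (log2 -1.81 ± 0.425, adjusted p 0.0112), at a level of few counts. Without dexamethasone 1 its adjusted p was 0.0556. MMP19 rose from 5.29, 4.44 and 5.28 to 6.96, 8.01 and 6.84 CPM, 1.45-fold (log2 0.54 ± 0.119, adjusted p 0.0073). Exons of MMP9 and MMP19 overlap antisense or neighbouring genes over 18.4% and 17.4% of their bases, so part of their counts may belong to those. MMP1 did not pass, with 4.19, 3.17 and 4.3 CPM in dexamethasone and an adjusted p of 0.55.

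Of the ADAM genes, ADAM19, a sheddase of neuregulins, fell from 59.8, 59.5 and 52.5 to 31, 35.9 and 33.4 CPM, 1.71-fold (log2 -0.78 ± 0.0856, adjusted p 2.18e-05). ADAM8 fell from 306, 226 and 172 to 79.6, 144 and 92.7 CPM, 2.23-fold (log2 -1.15 ± 0.259, adjusted p 0.0162). The highest vehicle value and the highest treated value of ADAM8 were in the 2 libraries that stood apart, and its call was lost without vehicle 1 (adjusted p 0.0506) and without dexamethasone 1 or 3 (0.0601 and 0.0669). With the GC offset ADAM8 fell by 0.78 on the log2 scale. ADAM28 fell 1.6-fold and ADAM12 fell 1.27-fold, with adjusted p of 0.0179 and 0.0198. ADAM28 was lost without dexamethasone 1 or 3 (0.0843 and 0.0829) and ADAM12 without dexamethasone 2 or 3 or vehicle 2 (0.0768, 0.0718 and 0.0581). ADAM9 rose 1.21-fold with an adjusted p of 0.0219, lost without dexamethasone 1 or 3 or vehicle 1 (0.0857, 0.104 and 0.0646). ADAM10 and ADAM17 did not pass, with 95% intervals of the log2 change of -0.11 to 0.24 and of -0.047 to 0.234.

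The TIMP genes parted. TIMP3 fell from 386, 396 and 340 to 210, 221 and 227 CPM, 1.7-fold (log2 -0.77 ± 0.1, adjusted p 0.000111). TIMP4 rose from 3.35, 3.05 and 2.71 to 4.52, 4.47 and 5.03 CPM, 1.54-fold (log2 0.62 ± 0.135, adjusted p 0.00675). Neither pair of groups overlapped. TIMP1 was at 177, 188 and 182 CPM and TIMP2 at 487, 494 and 503 with dexamethasone. Both did not pass, with 95% intervals of the log2 change of -0.198 to 0.043 and -0.169 to 0.073.

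**Figure D3:**
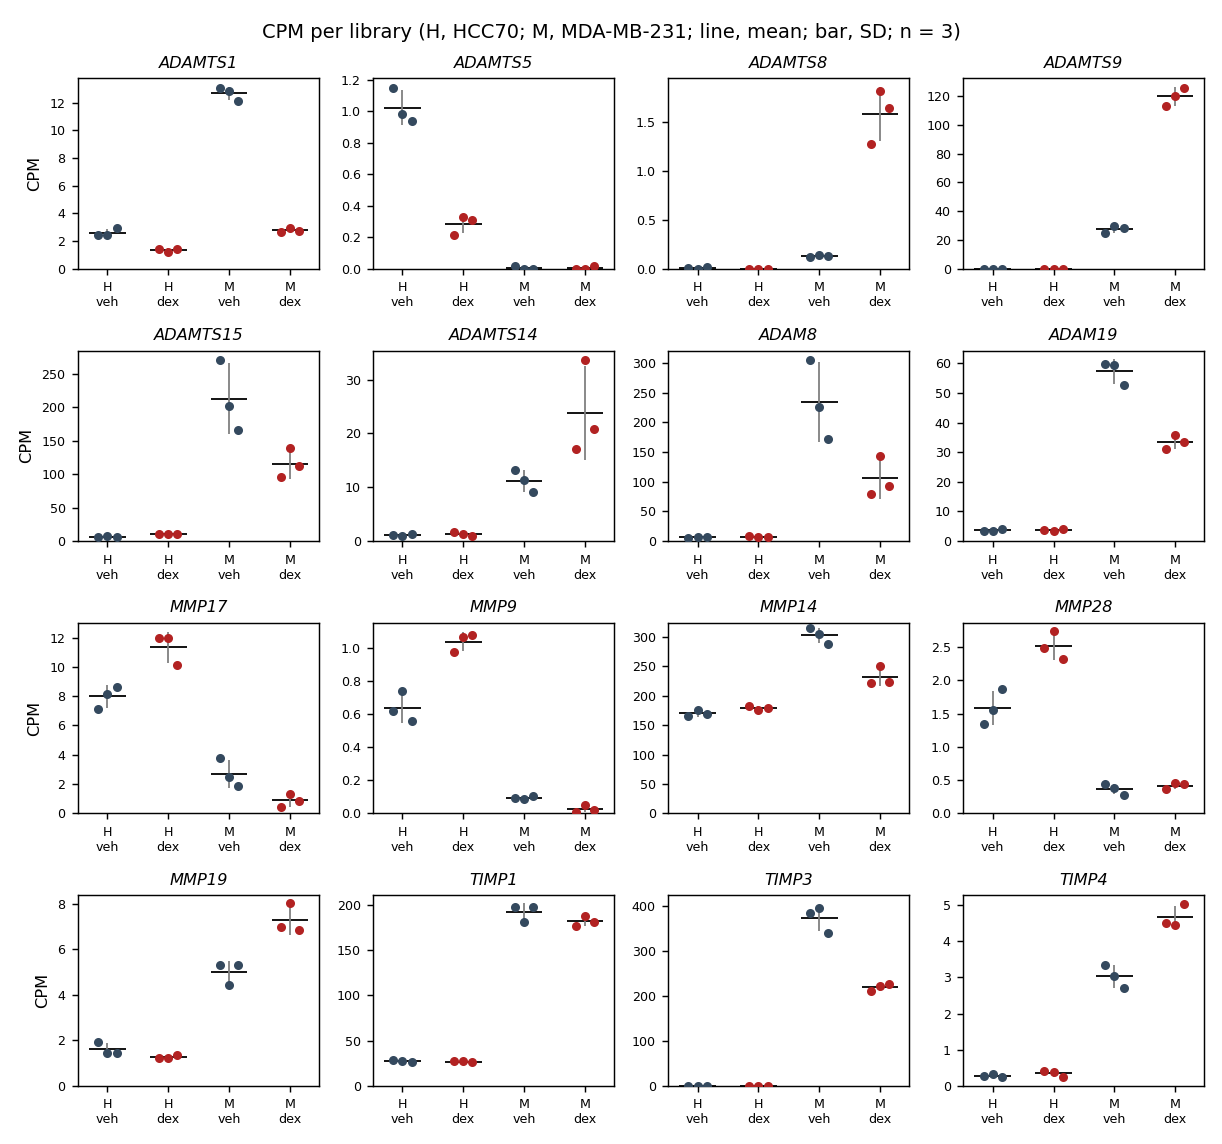
CPM in each library (points, left to right replicates 1 to 3) for 16 of the genes, linear y axes that start at 0, with the group mean as a line and the SD as a bar (n = 3). ADAMTS9, ADAMTS8 and TIMP4 are higher in all treated MDA-MB-231 libraries, and ADAMTS1 is lower in the treated libraries of both lines.

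GC content moved with several MDA-MB-231 values. With the GC offset 12 members rose and 14 fell, while over all genes 1833 rose and 3329 fell (1870 and 2240 without it). Those added were ADAM15, ADAMTS16, MMP15, MMP24 and MMP25, which rose, and ADAM22, which fell. ADAM15 changed sign, from a log2 change of -0.12 (adjusted p 0.638) without the offset to 0.30 (adjusted p 5.96e-05) with it. Its CPM were 388, 308 and 262 in vehicle and 257, 355 and 271 with dexamethasone, overlapping values. All 20 members that passed without the offset passed with it. MMP15 went from a log2 change of 0.30 (adjusted p 0.391) to 0.77 (adjusted p 2.69e-08), and MMP25 from 0.12 (0.738) to 0.62 (0.00265). Exons of MMP24 and MMP25 overlap antisense genes over 21.8% and 35.2% of their bases, so part of their counts may belong to those. The CPM of MMP15 were 16.1, 12.1 and 9.96 in vehicle and 11.7, 21.1 and 14.2 with dexamethasone, overlapping values, with the highest of each group in the 2 libraries that stood apart. MMP17 fell by 1.14 and ADAMTS15 by 0.66 on the log2 scale with the offset. Leaving out these 2 libraries gave 8 members that rose and 11 that fell, and over all genes 2479 and 3306. MMP16 and ADAM12 were then lost (adjusted p 0.0594 and 0.0589), and ADAM32 was added to those that rose.

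**Figure D4:**
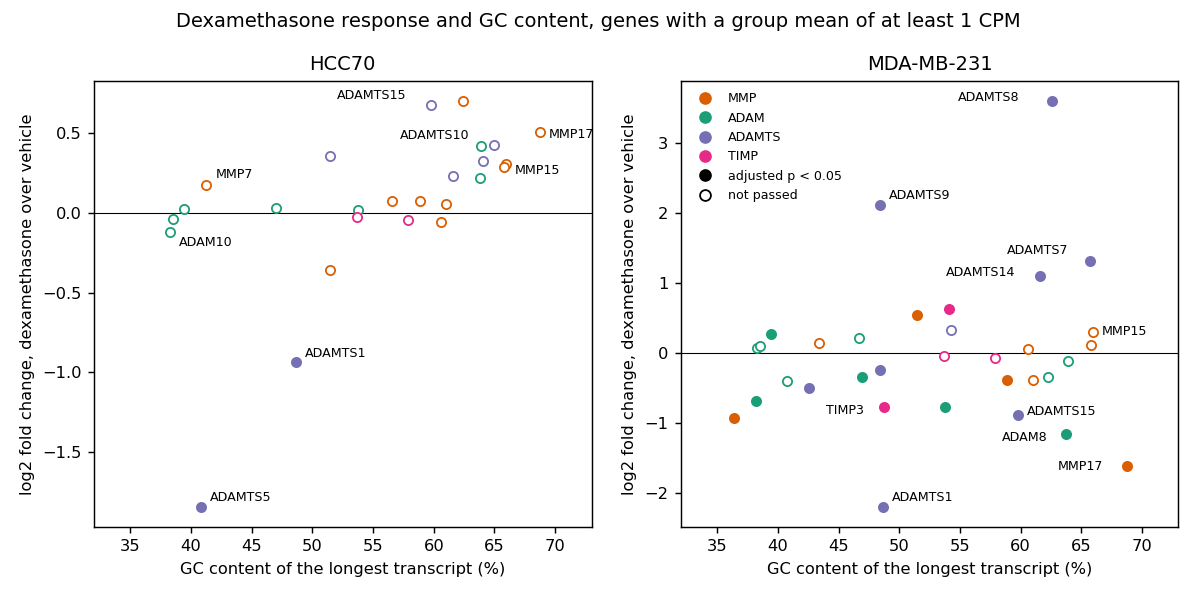
Log2 fold change with dexamethasone (y axis, no offset applied) against the GC content of the longest transcript (x axis, %), for genes with a group mean of at least 1 CPM in that line; filled points passed an adjusted p of 0.05. In HCC70 the genes with at least the 62.4% GC of MMP9 all lie above 0, while in MDA-MB-231 genes of that GC content lie on both sides.

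The responses themselves were compared between the lines as HCC70 minus MDA-MB-231. They differed for 9 of 46 members, 19.6%, where 12.1% of all genes passed (6.96% with the higher response in HCC70 and 5.09% with the lower). In 7 the response was higher in HCC70. For MMP9 the difference was 2.51 ± 0.468 on the log2 scale (adjusted p 0.00394) and for MMP17 2.12 ± 0.435 (adjusted p 0.0132). For ADAMTS15 it was 1.56 ± 0.255 (adjusted p 0.00349). The treated libraries lay above the vehicle libraries in HCC70 and below them in MDA-MB-231 for all 3 genes. In the fit of all libraries none of the 3 passed in HCC70 itself (adjusted p 0.0716 for MMP9, 0.364 for MMP17 and 0.0772 for ADAMTS15). With the GC offset ADAMTS15 passed there (0.0108) but MMP9 and MMP17 did not (0.154 and 0.495). ADAM8 differed by 1.38 ± 0.375 (adjusted p 0.0438), a call that was lost without any one library of HCC70, without MDA-MB-231 vehicle 1 or 2 or dexamethasone 1 or 3 (adjusted p 0.0501 to 0.109). With the GC offset the differences were 2.10 for MMP9, 1.31 for MMP17, 1.18 for ADAMTS15 and 0.74 for ADAM8. In that fit 7 members had the higher response in HCC70 and 6 the lower, and over all genes 2660 and 1218 did. ADAM12 was added to the higher responses and MMP14 was lost. Added to the lower ones were ADAMTS14 (-1.33, adjusted p 0.00585), MMP15 (-0.79, 1.58e-06), MMP24 (-0.50, 0.00218) and MMP25 (-0.65, 0.0153).

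ADAM19 differed by 0.80 ± 0.129 (adjusted p 0.00139), at 3.41, 3.55 and 4.07 CPM in HCC70 vehicle and 3.7, 3.38 and 4.1 with dexamethasone. ADAMTS1, which fell in both lines, fell less in HCC70, by 1.26 ± 0.144 on the log2 scale (adjusted p 7.71e-05). MMP14 differed by 0.46 ± 0.087 (adjusted p 0.00443), with 165, 176 and 169 CPM in HCC70 vehicle and 182, 176 and 179 with dexamethasone, but with the GC offset by 0.18 (adjusted p 0.0683). MMP19 had the lower response in HCC70, by -0.90 ± 0.182 (adjusted p 0.00701), with 1.93, 1.45 and 1.43 CPM in HCC70 vehicle and 1.22, 1.2 and 1.35 with dexamethasone. ADAMTS8 also had the lower fitted response in HCC70 (adjusted p 0.0179), where it had 3 counts in vehicle and 0 with dexamethasone. The size of that difference is therefore not a measure of the change, and the call was lost without HCC70 vehicle 1 or 3 (adjusted p 0.0591 and 0.0904). For TIMP3, at most at 0.0945 CPM in HCC70, no difference of the responses passed (adjusted p 0.137).

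Genes that act around these enzymes were taken from 4 lists chosen for this pathway. Over all genes, 3.96% passed in HCC70 (2.55% up, 1.4% down) and 14.6% in MDA-MB-231 (6.65% up, 7.96% down), with a median log2 change of -0.01 in each. Of 20 tested activators and regulators 2 rose in HCC70, and 3 rose and 2 fell in MDA-MB-231, with median log2 changes of 0.14 and -0.12. No regulator fell in HCC70, where 2 had an unadjusted p under 0.05 with a negative sign in edgeR and 0 passed in DESeq2. PLAT, tissue plasminogen activator, rose in both lines, 2.03-fold in HCC70 and 1.32-fold in MDA-MB-231 (adjusted p 0.000133 and 0.0101). PLAU, or urokinase, and its receptor PLAUR fell in MDA-MB-231, 1.63-fold and 2.11-fold (adjusted p 6.78e-07 and 1.19e-07). Plasmin made by these activators cuts and activates pro-MMPs. TSPAN5, a tetraspanin partner of ADAM10, rose 1.39-fold in MDA-MB-231 (adjusted p 0.00234).

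Of 14 relatives outside the 4 families 1 rose in HCC70, and 1 rose and 1 fell in MDA-MB-231, with median log2 changes of 0.24 and -0.29. PAPLN, an ADAMTS-like matrix protein, rose in MDA-MB-231 from 10.8, 6.57 and 5.36 to 20.1, 39.2 and 24.4 CPM, 3.67-fold (adjusted p 0.00183). ADAMTSL1 fell there 1.53-fold (adjusted p 0.00191). THSD4 rose 1.21-fold in HCC70 (adjusted p 0.0335), a call lost without any one of the 6 HCC70 libraries (0.0693 to 0.157) and when only library size was used for scaling (0.135). No relative fell in HCC70, with 0 at an unadjusted p under 0.05 in edgeR and 0 in DESeq2.

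Of 27 tested membrane proteins that ADAM and MMP enzymes shed, 4 rose and 1 fell in HCC70, and 5 rose and 10 fell in MDA-MB-231, with median log2 changes of 0.14 and -0.37. The EGFR ligand precursors went different ways in MDA-MB-231. HBEGF fell from 41.4, 39.1 and 43.5 to 13.5, 12.1 and 12.3 CPM, 3.28-fold (adjusted p 1.04e-08), and TGFA fell 1.86-fold (3.3e-08), whereas AREG rose from 29.1, 29.7 and 31.5 to 61.9, 55.1 and 56.6 CPM, 1.92-fold (3.6e-06). In HCC70 TGFA rose from 25.2, 25.9 and 25.2 to 39.8, 38.8 and 39.3 CPM, 1.55-fold (7.81e-06). The chemokine CX3CL1, shed by ADAM10 and ADAM17, fell in MDA-MB-231 from 6.72, 5.51 and 4.19 to 0.773, 1.01 and 0.859 CPM, 6.22-fold (1.4e-07). In HCC70 CX3CL1 rose from 109, 110 and 120 to 176, 168 and 166 CPM, 1.51-fold (0.0192), a call lost without vehicle 1 or 2 or dexamethasone 1, 2 or 3 (0.062 to 0.107). IL6R, the receptor of interleukin 6 that ADAM17 and ADAM10 release, rose in both lines, 4.34-fold in HCC70 and 2.25-fold in MDA-MB-231 (adjusted p 1.4e-07 and 8.73e-06).

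The Notch ligand JAG1 fell 2.17-fold in MDA-MB-231 (adjusted p 1.29e-08) and 1.19-fold in HCC70 (adjusted p 0.029). The HCC70 call was lost without HCC70 vehicle 1, 2 or 3 or dexamethasone 1 or 2, and without MDA-MB-231 dexamethasone 3 (0.0531 to 0.181). SDC4, a cell surface proteoglycan, rose 1.29-fold in HCC70 (0.00122). TNFRSF1A, a TNF receptor that ADAM17 releases, rose 1.56-fold in MDA-MB-231 (4.51e-06), and the adhesion molecule ALCAM rose 1.55-fold (1.27e-05).

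Of 20 tested matrix substrates 3 rose and 4 fell in MDA-MB-231, with a median log2 change of -0.29. In HCC70 none of 20 passed in edgeR, 2 had an unadjusted p under 0.05 and 1 passed in DESeq2. The 2 most abundant, LAMB3 and HSPG2, were at 429 ± 43.8 and 392 ± 71.02 CPM in vehicle and at 504 ± 19.3 and 521 ± 61 with dexamethasone. In MDA-MB-231 THBS1, or thrombospondin 1, rose 1.69-fold (adjusted p 2.35e-05), FBN1 1.48-fold (0.00034) and FN1 1.44-fold (0.00408). COL7A1 and COL1A1 fell, 1.95-fold and 1.94-fold (0.0171 and 0.0221), and both calls were lost without dexamethasone 1 (0.0654 and 0.0907) or 3 (0.0712 and 0.0863). LAMB3 fell 1.62-fold (0.011), lost without dexamethasone 1 (0.0516). TNC fell 1.26-fold (0.0118). All 4 of these falls were lost with MDA-MB-231 fitted alone (0.0738 to 0.128). VCAN, or versican, a main substrate of ADAMTS1, ADAMTS9 and ADAMTS15, had 0 counts in all HCC70 libraries and was at 0.216 ± 0.0999 CPM in MDA-MB-231 vehicle.

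The 21 members left out of the tests had low counts. For 8 of them, ADAM18, ADAM30, ADAM6, ADAM7, ADAMTS19, MMP10, MMP26 and MMP27, no library had a count. The other 13 had at most 24 counts in a library, the highest in ADAMTS2. The exons of ADAM1, a tested member, lie wholly within those of another gene, MAPKAPK5, so its counts cannot be told from those of that gene.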

How the data were processed

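Reads of 12 polyA, non-stranded libraries had been counted per gene, and the deposited values are raw whole-number counts without normalization. Per the submitters' processing notes, TopHat 1.4.1, Cufflinks 1.3.0, bedtools and the human genome build hg19 were used; the counting step and gene annotation are not given in the sources used here. Columns were assigned to groups by their titles.

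All 12 libraries (106345287 to 123218973 counts) entered one fit in edgeR 4.0.16 (R 4.3.3) with TMM scaling, genes kept by filterByExpr (minimum count 10), robust quasi-likelihood tests and Benjamini-Hochberg adjustment over 28141 genes. The threshold was an adjusted p of 0.05. Intervals of ratios are exact and cover counting error only. The offset for GC content and length used 1 transcript per gene from GENCODE (GRCh38), used for no coordinates. DESeq2 1.42.0, other scalings and filters, a replicate block and left-out libraries were alternatives. The script was tested on simulated data. Named genes were every member that passed a dexamethasone test or the difference, with values by library for the 8 largest of each, the 4 TIMP genes, the 8 largest differences between the lines and the 3 highest levels per length in each line, and up to 4 genes of each list per comparison; others named, such as ADAM10, ADAM17 and MMP2, were chosen after their values were seen. The members and lists were chosen with earlier results of these data known. One gene of the list of activators and regulators is not reported here.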

Additional observations from a re-analysis of the deposited data

Results flagged for a closer look

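The dexamethasone response, as a log2 change in HCC70 minus that in MDA-MB-231, differed between the lines for 9 members by edgeR's test of the difference itself. It was higher in HCC70 by 2.5103 for MMP9, 2.1233 for MMP17, 1.5625 for ADAMTS15, 1.3761 for ADAM8, 1.2564 for ADAMTS1, 0.7983 for ADAM19 and 0.4585 for MMP14. The difference was -0.8958 for MMP19. The fitted difference of -6.7978 for ADAMTS8 rests on 3 counts in HCC70 and depends on the prior count.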

How the results depend on the processing

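None of the calls that members had in the fit of all libraries reversed under 22 alternatives. ADAM15, which had no call in MDA-MB-231 in that fit, changed sign there with the GC offset. Only alternatives that gave a member an adjusted p were counted for it. In all of these, calls held for 2 of 4 members in HCC70 (ADAMTS1, ADAMTS5) and 8 of 20 in MDA-MB-231. They held for 6 of 9 differences and 43 of 43 between the lines. ADAMTS5 had no call in HCC70 with at least 5 CPM in 3 libraries or in DESeq2. The causes of the changes below were not tested.

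In HCC70 the 1 member that rose became 2 with library size only, 0 with at least 5 CPM in 3 libraries, 5 in DESeq2, 9 with HCC70 fitted alone, 8 without both MDA-MB-231 libraries that stood apart, 2 with the GC offset and 0 to 4 without single libraries. The 3 that fell became 1 with the strict filter, 1 in DESeq2 and 2 to 3 without single libraries. All genes called, 1114, became 1686 in DESeq2, 4828 alone, 3867 without both, 1842 with the offset and 510 to 1775 without single libraries.

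In MDA-MB-231 the 7 that rose became 4 with the strict filter, 12 with the offset and 5 to 7 without single libraries, and the 13 that fell became 6 alone and 7 to 13. All genes, 4110, became 2116 alone and 2424 to 6452. The 2 lower differences became 1 with the strict filter, 4 in DESeq2, 4 without both, 6 with the offset and 1 to 4. All differences, 3391, became 6206 without both and 1614 to 6259. Between the lines 28 lower became 17 and 22294 genes became 11980 with the strict filter. With library size only, the median difference of responses of all genes moved from -0.015 to -0.125, and genes rising and falling in HCC70 were 552 and 762 (719 and 395 with TMM), and for the difference 1766 and 2498 (1960 and 1431).

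Deviations from the group means were correlated between vehicle and dexamethasone libraries. Same-numbered correlations were -0.233, 0.118 and 0.0105 in HCC70 and -0.634, -0.261 and 0.33 in MDA-MB-231. Those of differently numbered libraries ran from -0.24 to 0.214 and from -0.661 to 0.712, the highest for MDA-MB-231 vehicle 1 with dexamethasone 2. Deviations within a group of 3 depend on each other, so whether replicate numbers mark pairs cannot be told from these values. With the replicate block 0 members rose in HCC70, with 695 genes called, and 2059 differences were called. With the block and the offset 2 members rose in HCC70 and 11 in MDA-MB-231, and 6 differences were lower.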
